A study of Arabidopsis thaliana with 35 samples.

Results

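Brief risers at 1 h of cold are 90 of the 18622 nuclear genes in the RNA table of a vernalization series in Arabidopsis thaliana. They were chosen on the deposited group averages. Each had a log2((1 h + 1)/(no cold + 1)) of at least 1 and a log2((1 d + 1)/(no cold + 1)) under 0.5, where 1 is a pseudocount added to each normalised read count. Of the 171 nuclear genes that were at least 2-fold higher at 1 h, these 90 had a 1 d log2 ratio under 0.5 and the other 81 a 1 d log2 ratio of at least 0.5. The 1 h, 1 d and no-cold values therefore describe how the genes were chosen and are given with no test. Of the 90 genes, 86 code for proteins, 3 for transfer RNAs and 1 for the small nuclear RNA U6acat.

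The plants were seedlings of Col-0 carrying a functional FRI allele, grown at 22 °C under 16 h of light, and all groups share that background. The RNA groups, with 2 libraries each, were plants without cold (NV), plants cooled for 1 h, for 1 d, for 10 d, for 20 d or for 40 d, and plants returned for 10 d to normal growth once 40 d of cold had passed (T10). H3K27me3, H3K4me3 and H3K36me3 were profiled by ChIP-seq in NV, at 40 d and at T10, also with 2 libraries each. The labels give neither the temperature of the cold, the age of the seedlings nor the hour of harvest, and nothing in them says that the libraries of a group came from separate cultures, so p-values measure the spread between these libraries only, which may be technical.

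A drop in temperature is sensed within minutes in plants, and calcium influx, mitogen-activated protein kinase cascades and a first wave of transcription factors follow. Part of that wave, the CBF factors among it, drives cold acclimation genes over the following hours and days. Another part, with many zinc-finger, ERF and WRKY factors, calcium sensors and jasmonate repressors, is also induced by touch, wounding and pathogen signals, and its transcripts are short-lived. In RNA from seedlings, fewer cells of a type and less RNA per cell cannot be told apart.

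The RNA values are normalised read counts per gene, not divided by gene length, so a higher count in one gene than in another is no higher level. Each deposited average could be split into the whole reads of its 2 libraries, which are told apart here by depth, as deeper and shallower, because the table carries no replicate numbers. All 90 genes were split. The shallower T10 library held the fewest reads in such genes (2.31 M, where M is 1e+06) and the deeper 40 d library the most (20.1 M). The 1 h group was the most uneven at these genes. Its libraries differed by a median of 1.51 on the log2 scale across the 90 genes, against 0.42 across all nuclear genes. They were at least 2-fold apart in 63 of the 90. Of all nuclear genes, 6.42% were at least 2-fold higher in the shallower 1 h library and 5.97% in the deeper. Across the 90 genes, the median difference between libraries was 0.50 in NV and 0.13 to 0.31 in each of the other 5 groups. Across genes, closeness did not follow the labels of NV and 1 h: the shallower 1 h library correlated with the deeper NV library (r = 0.972) more closely than with the deeper 1 h library (r = 0.922). Of the 9 shoot markers, 8 could be split in every group. A marker with an average above 5000 in a group was left out of that group's sums. Sums of different groups may therefore not cover the same genes. The shoot markers summed to 4088 and 8202 in the deeper and the shallower 1 h library. In the NV libraries, deeper first, they summed to 6787 and 4417. The 18 root markers summed to 122 and 99 at 1 h and to 88.1 and 91.4 in NV, with SMB at 0 in the shallower 1 h library. The part of tissue balance in the 1 h values was not tested.

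**Figure D1:**
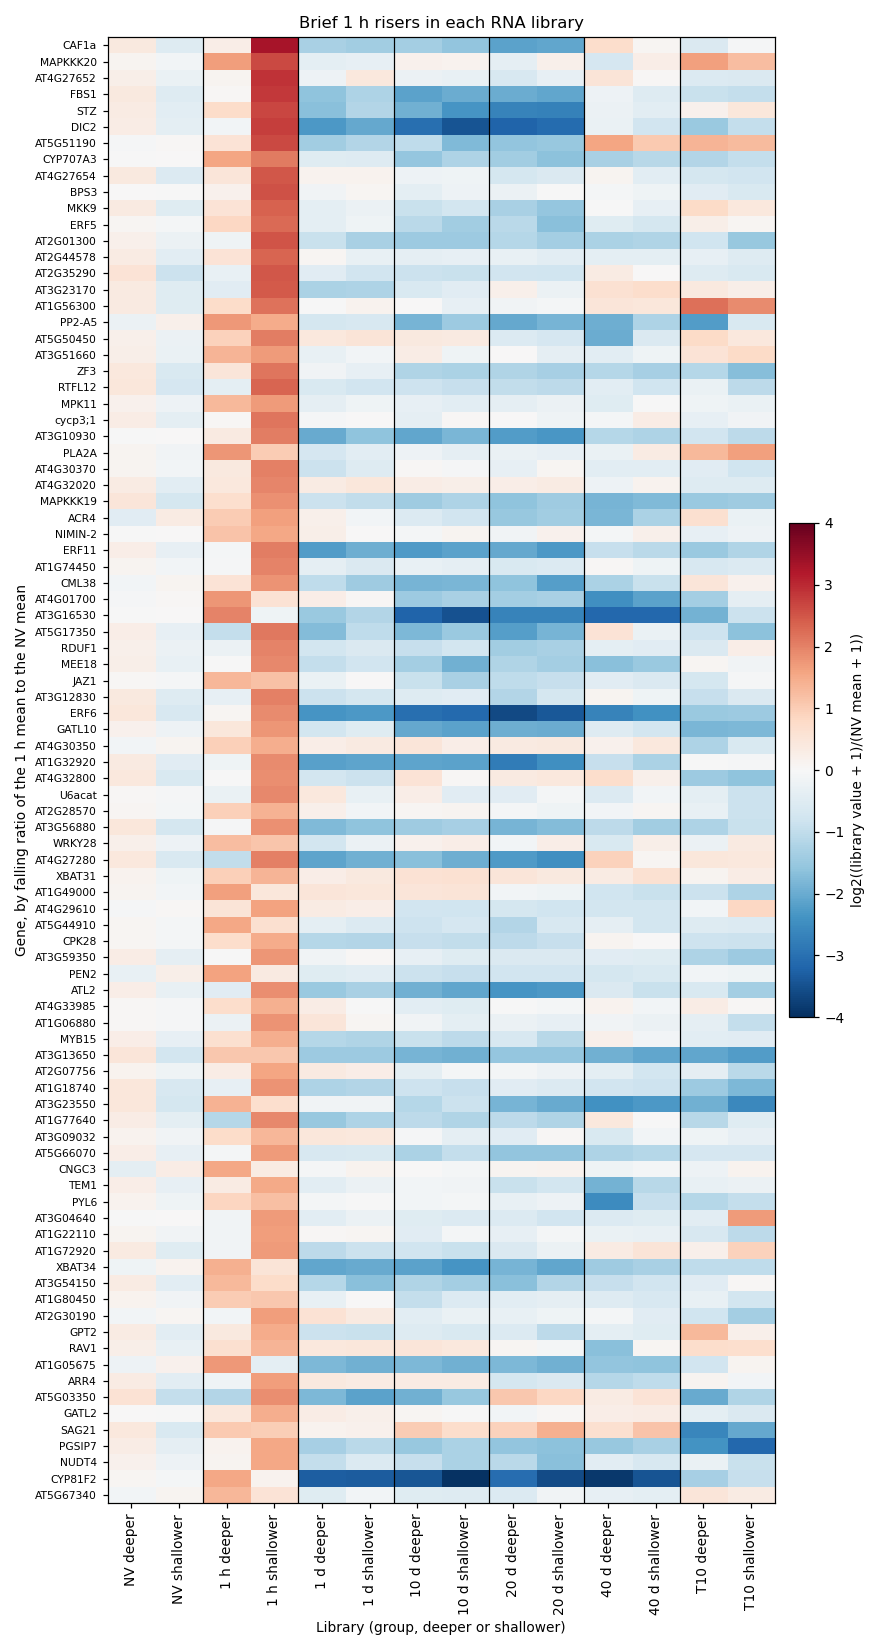
Heat map of the 90 genes (rows, by falling ratio of the 1 h mean to the NV mean) in the 14 RNA libraries (columns, NV first and then in order of time, deeper library left). Colour is log2((library value + 1)/(NV mean + 1)), red above and blue below the NV mean. The shallower 1 h library is the reddest column, most rows are blue from 1 d to 20 d, and some rows are red at 40 d.

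Over the 90 genes, the median level was highest at 1 h and below the no-cold level from 1 d to T10. The median of the group means was 6.36 in NV (range 0.42 to 161), 16.2 at 1 h (2.47 to 424), 2.85 at 1 d, 2.01 at 10 d, 1.77 at 20 d, 3.18 at 40 d and 3.49 at T10. The median log2 ratio to NV was 1.2 at 1 h and -0.47 at 1 d, and both were fixed in part by the choice of genes. All later times share the NV libraries with that choice, so the values that follow are a description. The median log2 ratio to NV was -0.79 at 10 d, -0.78 at 20 d, -0.43 at 40 d and -0.54 at T10, against -0.02, -0.01, -0.01 and -0.03 for all nuclear genes at those times. At least 2-fold below NV were 28 of the 90 genes at 1 d (6.4% of all nuclear genes), 36 at 10 d (8.57%), 38 at 20 d (8.33%), 25 at 40 d (9.25%) and 25 at T10 (7.69%). At least 2-fold above NV were 0 at 10 d (4.76% of all nuclear genes), 1 at 20 d (5.02%), 1 at 40 d (5.89%) and 5 at T10 (7.86%).

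The 1 h difference was uneven over the libraries. Both 1 h libraries lay above both NV libraries for 53 of the 90 genes (11.9% of all nuclear genes) and overlapped with NV for 37. The shallower 1 h library was at least 2-fold above the deeper for 56 genes, against 6.42% of all nuclear genes, and the deeper was at least 2-fold above the shallower for 7, against 5.97%. Measured against the NV mean, 12 genes reached a log2 ratio of 1 in each 1 h library (0.236% of all nuclear genes). Another 65 did so in the shallower alone (2.00%) and 13 in the deeper alone (0.967%). The deeper NV library was above the shallower NV library for 72 genes (52.5% of all nuclear genes). When each 1 h library was set against the NV library it correlated with most closely, a pairing chosen after the data were seen, 78 genes had a ratio above 0 in both pairs (27.6% of all nuclear genes) and 17 reached 1 in both (0.306%). Both 1 d libraries lay below both 1 h libraries for 80 of the 90 (27.9%). The choice of genes itself set every 1 h mean above its NV mean and every 1 d mean below its 1 h mean. The shares of all nuclear genes in this paragraph are from genes not so chosen, so the counts beside them are a description only.

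**Figure D2:**
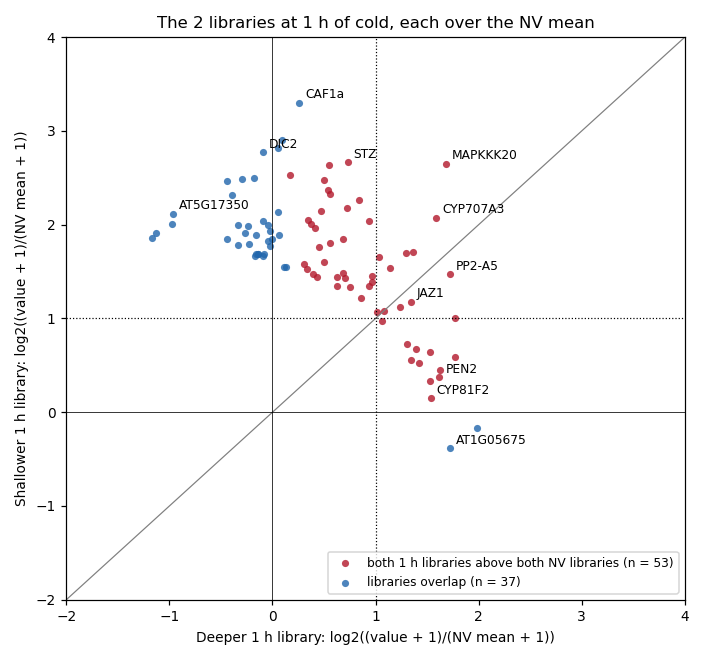
The deeper (x axis) against the shallower (y axis) 1 h library for each of the 90 genes, each as log2((value + 1)/(NV mean + 1)). Red points are the 53 genes whose 1 h libraries both lie above both NV libraries and blue points the 37 that overlap, dotted lines mark a ratio of 1 and the grey line equal values. Most points lie above the grey line, CAF1a and DIC2 near 0 on the x axis, while PEN2 and CYP81F2 are among those below it.

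Transcription factors were among the genes with the largest differences at 1 h. STZ (AT1G27730), also known as ZAT10, a C2H2 zinc-finger repressor induced by cold, salt and drought, had 39.9 and 156 normalised counts in the deeper and the shallower 1 h library and 29.98 and 17.4 in the NV libraries. The related zinc-finger gene ZF3 (AT5G43170, AZF3) had 4.27 and 15.9 at 1 h and 4.14 and 1.47 in NV, so that its lowest 1 h value lay just above its highest NV value. ERF5 (AT5G47230), an ethylene response factor, had 21.5 and 59.8 at 1 h and 12.3 and 11.0 in NV. In all 3 genes the shallower 1 h library was the higher. At 1 d they were at 6.81 and 9.94 (STZ), 2.43 and 2.05 (ZF3) and 8.61 and 10.1 (ERF5).

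ERF105 (AT5G51190), another ethylene response factor gene, had 4.92 and 24.2 at 1 h and 2.93 and 3.14 in NV, with no overlap. ERF6 (AT4G17490) had 25.7 and 94.0 at 1 h and 33.8 and 15.4 in NV, and ERF11 (AT1G28370), a repressor, 4.48 and 23.0 at 1 h and 6.01 and 3.67 in NV. For ERF6 and ERF11 the deeper 1 h library lay within the range of NV. Both were far below NV at 1 d, with log2 ratios of -2.34 and -2.09. Of the B3 factors, RAV1 (AT1G13260) had 71.1 and 117 at 1 h and 54.1 and 37.1 in NV. TEM1 (AT1G25560), a relative of RAV1 that represses the florigen gene FT, had 85.7 and 197 at 1 h and 81.9 and 53.2 in NV, and was among the 3 genes with the highest 1 h mean counts, not per length. WRKY28 (AT4G18170) had 6.89 and 6.26 at 1 h and 2.81 and 1.88 in NV, with its 1 h libraries nearly equal. MYB15 (AT3G23250), a MYB factor known to act on CBF genes, was low throughout, at 2.56 and 5.24 at 1 h and 1.75 and 0.85 in NV.

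Kinases and calcium sensors were also among the 90. MAPKKK20 (AT3G50310), at the head of a kinase cascade, had 4.34 and 9.46 at 1 h and 0.80 and 0.53 in NV, a log2 ratio of 2.25 on the averages. It was the gene with the largest ratio among those without overlap. MKK9 (AT1G73500), a kinase one step down such a cascade, had 27.3 and 99.3 at 1 h and 24.1 and 12.8 in NV, and MPK11 (AT1G01560), a kinase at the last step of such a cascade, 3.46 and 4.90 at 1 h and 1.04 and 0.59 in NV. CPK28 (AT5G66210), a calcium-dependent protein kinase that tempers immune signalling, had 37.9 and 66.4 at 1 h and 24.6 and 21.7 in NV. The calmodulin-like gene CML38 (AT1G76650) had 6.16 and 16.1 at 1 h and 3.52 and 4.23 in NV. None of these 5 genes overlapped between 1 h and NV.

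Hormone genes of several pathways were included. CYP707A3 (AT5G45340), which encodes an abscisic acid 8′-hydroxylase and so removes the hormone, had 37.2 and 52.5 at 1 h and 11.6 and 11.8 in NV. JAZ1 (AT1G19180), a repressor of jasmonate responses, had 44.1 and 39.2 at 1 h and 17.4 and 16.1 in NV. For these 2 genes the libraries within each group were close and the groups well apart. The abscisic acid receptor gene PYL6 (AT2G40330) had 61.9 and 79.3 at 1 h and 37.5 and 29.8 in NV. ARR4 (AT1G10470), a type-A response regulator of cytokinin signalling, had 42.4 and 154 at 1 h and 59.7 and 35.6 in NV, and overlapped. NIMIN-2 (AT3G25882), whose product binds the salicylic acid regulator NPR1, had 2.39 and 3.47 at 1 h and 0.52 and 0.56 in NV.

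The 5 largest ratios among genes that overlapped rested on the shallower 1 h library. CAF1a (AT3G44260), a deadenylase that shortens the poly(A) tails of mRNA, had 11.5 and 102 in the deeper and the shallower 1 h library and 12.6 and 6.26 in NV. DIC2 (AT4G24570), a mitochondrial dicarboxylate carrier, had 26.4 and 199 at 1 h and 35.2 and 21.4 in NV, and the F-box gene FBS1 (AT1G61340) 6.64 and 50.9 at 1 h and 8.63 and 4.11 in NV. AT4G27652 had 7.31 and 57.3 at 1 h and 8.11 and 5.47 in NV, and AT2G01300 1.55 and 15.3 at 1 h and 2.32 and 1.44 in NV. In each of the 5 the deeper 1 h library lay within the range of the NV libraries. AT4G27652 and AT4G27654, another of the 90 genes, are direct neighbours in the RefSeq table, and AT4G27654 had 2.26 and 11.8 at 1 h and 2.03 and 0.59 in NV.

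A smaller set was higher in the deeper 1 h library. The 7 genes at least 2-fold higher there, singled out after their values were seen, were AT4G01700, AT3G16530, AT1G49000, PEN2, CNGC3, AT1G05675 and CYP81F2. PEN2 (AT2G44490), an atypical myrosinase of pathogen defence, had 250 and 105 at 1 h and 65.7 and 95.7 in NV, and CYP81F2 (AT5G57220), which modifies indole glucosinolates in the same defence pathway, had 89.4 and 33.6 at 1 h and 32.0 and 28.4 in NV. CNGC3 (AT2G46430), a cyclic nucleotide-gated channel, had 20.4 and 8.31 at 1 h and 4.68 and 8.14 in NV. These 3 genes did not overlap, with the lowest 1 h value of each near its highest NV value. AT3G16530 had 72.8 and 15.7 at 1 h and 17.3 and 18.0 in NV, and overlapped. CYP81F2 had the lowest 1 d ratio of the 90 genes, with 2.15 and 2.13 normalised counts at 1 d.

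The remaining named genes of the 1 h comparison included PP2-A5 (AT1G65390), a phloem protein 2 gene, with 33.1 and 27.6 at 1 h and 7.87 and 10.8 in NV. BPS3 (AT4G01360) had 1.03 and 9.39 at 1 h and 0.83 and 0.76 in NV, and AT2G44578 had 1.09 and 6.13 at 1 h and 0.78 and 0.06 in NV. AT1G56300 had 12.8 and 36.8, AT5G50450 19.9 and 44.2 and AT3G51660 6.62 and 8.65 at 1 h, against 9.69 and 5.0, 11.5 and 8.40, and 2.48 and 1.44 in NV. AT4G32020 had the highest 1 h mean count of the 90 genes, again not per length, with 214 and 633 at 1 h and 201 and 121 in NV. The 3 transfer RNA genes and U6acat had 1 h means of 3.14 to 4.32. These low counts are uncertain, and transfer RNA genes also belong to multicopy families.

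At the thresholds of the choice, AT5G67340 and CYP81F2 lay just inside the 1 h limit, with log2 ratios of 1.002 and 1.003, and ATL5 (AT3G62690) and BAP1 (AT3G61190) just outside, with 0.996 and 0.994. AT2G30190 and AT5G50450 lay just inside the 1 d limit, with 0.47 and 0.46, and CLE12 (AT1G68795) and RR5 (AT3G48100), also known as ARR5, just outside, with 0.501 and 0.502.

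The lists of related genes show which relatives shared the pattern. Of 19 listed first-wave cold transcription factors, 12 were at least 2-fold higher at 1 h. Of these, 5 were brief (STZ, RAV1, ZF3, ERF5 and ERF6) and the other 7 had a 1 d log2 ratio of at least 0.5: CBF1, CBF2, CBF3, ZAT12, CRF2, CRF3 and RVE2. All 6 clock and photoperiod genes that were at least 2-fold higher at 1 h, of 30 listed, had a 1 d log2 ratio of at least 0.5, and none is among the 90. Of 11 cytokinin response genes, 4 were at least 2-fold higher at 1 h. ARR4 was brief with a 1 d log2 ratio of 0.36, while ARR5, ARR6 and ARR7 had 0.50, 0.87 and 1.24 at 1 d. Of 22 touch and calcium-binding genes 2 were at least 2-fold higher at 1 h (CML38 and CPK28), and 12 were at least 2-fold below NV at 1 d. Of 15 further ethylene response factors 2 were higher at 1 h (ERF105 and ERF11) and 7 lower at 1 d, of 21 WRKY genes 1 (WRKY28) and 10, of 25 jasmonate genes 1 (JAZ1) and 10, and of 14 early immune and wound genes 3 (MKK9, MPK11 and CYP81F2) and 7. Heat shock and auxin response genes, and the root and shoot markers, hold none of the 90. In all, 15 of the 90 genes stand in a list and 75 in none. For 1 h against NV, the background share at least 2-fold higher was 0.918% of nuclear genes, and the rule used that contrast. At 1 d, 6.4% of nuclear genes were at least 2-fold below NV and 5.77% above. Of the other lists, 6 of 17 heat shock, 2 of 21 auxin response and 2 of 19 first-wave genes were at least 2-fold below NV at 1 d. So were 1 of 30 clock and photoperiod genes, of which 16 were at least 2-fold above, and 0 of 11 cytokinin response genes.

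**Figure D3:**
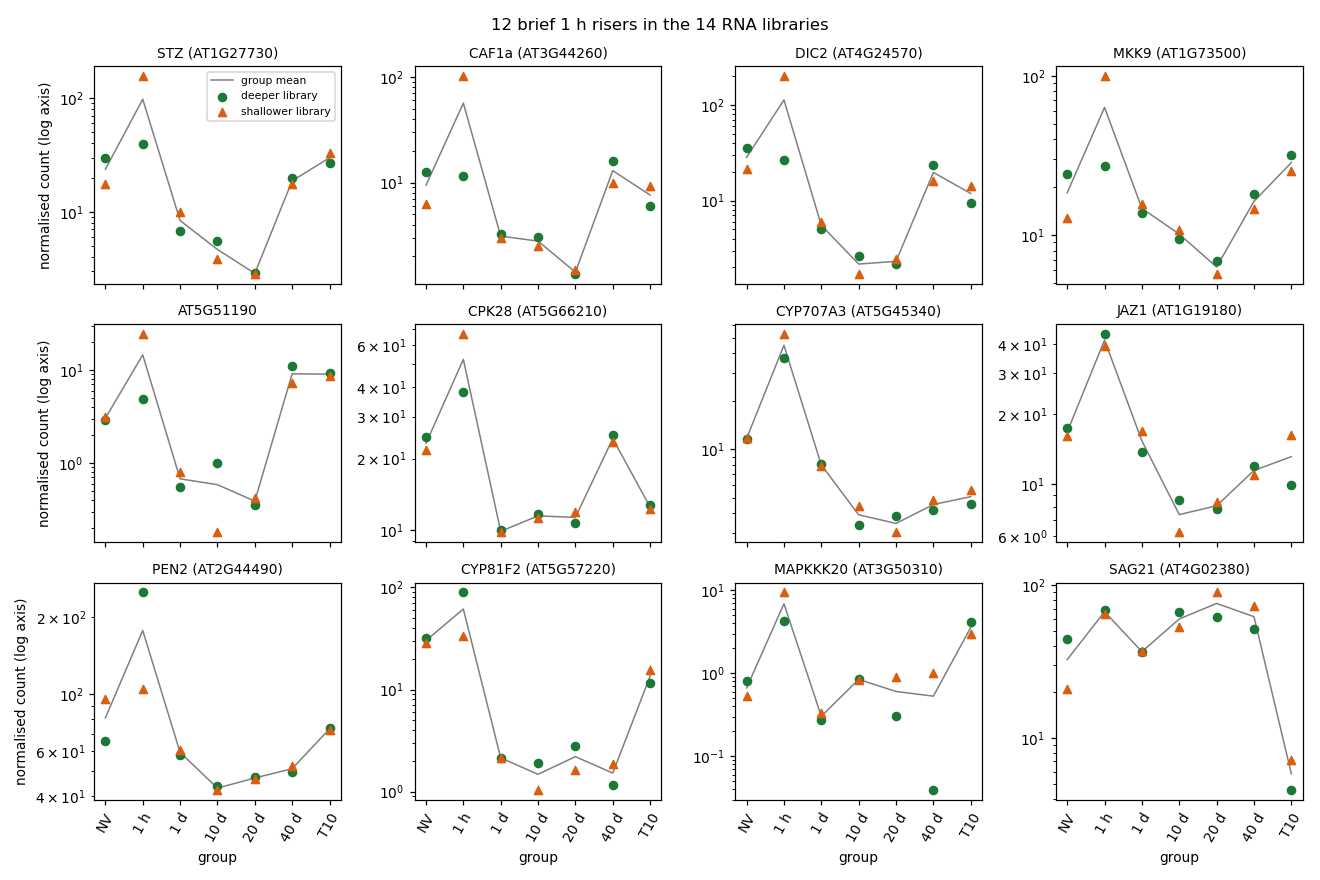
Normalised counts (log axes, 1 panel a gene) of 12 of the named genes in the 7 groups, NV first and then in order of time. Circles are the deeper and triangles the shallower library of a group and the line joins the group means. STZ, CAF1a, DIC2, AT5G51190 (ERF105) and CPK28 are high at 1 h, low from 1 d to 20 d and higher again at 40 d. MKK9 is high at 1 h and lower at 10 d and 20 d than at 40 d, while its 1 d and 40 d libraries overlap. MAPKKK20 and CYP81F2 are higher at T10 than at 40 d, and SAG21 is lower.

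The levels compared among the later groups come from no sample used in the choice of genes, and these comparisons were tested. The main limma fit, however, estimates spread from all 14 libraries, those of NV, 1 h and 1 d included. Its calls are therefore not fully independent of the choice. Only the fits with the 2 groups alone use none of those libraries. Between 20 d and 40 d of cold, STZ, ERF105, CAF1a, DIC2, MKK9 and CPK28 were among the genes with higher levels at 40 d. By size on the averages, 15 of the 90 genes were at least 2-fold higher at 40 d than at 20 d, against 0.848% of all nuclear genes, and 1 was at least 2-fold lower, against 1.06%. In all 15 both 40 d libraries lay above both 20 d libraries. Over the 90 genes that held for 44, against 25% of all nuclear genes, and both 40 d libraries lay below both 20 d libraries for 17, against 27.3%. The median fitted log2 change was 0.24 (quartiles -0.32 and 1.38), against -0.01 for all genes (-0.23 and 0.21).

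The largest such difference was at AT4G27280, with 36.6 and 19.9 normalised counts at 40 d and 3.14 and 2.59 at 20 d. ERF105 had 10.9 and 7.28 at 40 d and 0.36 and 0.42 at 20 d, from 563 and 299 reads at 40 d and 14 in each library at 20 d. DIC2 had 23.3 and 16.1 at 40 d and 2.20 and 2.44 at 20 d, and CAF1a 15.9 and 9.98 at 40 d and 1.35 and 1.47 at 20 d. In these 4 genes both 40 d libraries stood far above both 20 d libraries. STZ had 20.0 and 17.5 at 40 d and 2.91 and 2.83 at 20 d. MKK9 had 18.1 and 14.5 at 40 d and 6.92 and 5.68 at 20 d, and CPK28 25.0 and 23.5 at 40 d and 10.8 and 11.9 at 20 d. The others of the 15 were AT5G17350, FBS1, the ubiquitin ligase gene ATL2 (AT3G16720), AT1G32920, AT1G77640, GATL10 (AT3G28340, a galacturonosyltransferase-like gene), ERF11 and AT3G10930. The list of 15 follows from the size rule, and several of its genes were named after their values were seen. All 15 had a 1 d mean below NV, 13 of them by at least 2-fold, and 14 had been at least 2-fold higher in the shallower than in the deeper 1 h library. Of the 15, 6 had a 40 d mean above NV and 1, ERF105, by at least 2-fold. Every one was lower at 40 d than at 1 h on the averages. The choice of genes used the NV, 1 h and 1 d means, and it favoured a high 1 h mean and limited the 1 d mean. For other genes chosen in that way no share was worked out. The counts for these genes that involve NV, 1 h or 1 d are therefore a description only.

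Limma with voom was fitted to all 18762 split genes over the 14 libraries, with a common estimate of spread, and a call means a Benjamini-Hochberg adjusted p under 0.05. In 40 d against 20 d, 1 of the 90 genes rose, against 0.24% of all genes, and none fell, against 0.57%. That gene was CPK28 (log2 change 1.1, SE 0.225, adjusted p 0.044). At an unadjusted p under 0.05 limma counted 15 higher (4.33% of all genes) and 3 lower (6.46%). The count depended on how the spread was estimated: with sample quality weights 22 rose (3.28%) and 4 fell (4.76%), and with the 4 libraries of the 2 groups alone 26 rose (2.52%) and 4 fell (3.56%). The 15 genes above are among the 20 that rose under both of these settings. CPK28 lost its call without any 1 of the 4 libraries, with adjusted p of 0.377 (deeper 20 d left out), 0.185 (shallower 20 d), 0.40 (deeper 40 d) and 0.114 (shallower 40 d), at log2 changes of 1.03 to 1.17.

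Of the gene lists in that same comparison, 4 of 17 heat shock genes, 3 of 22 touch and calcium-binding genes and 2 of 14 early immune and wound genes rose and none fell, beside the 0.24% and 0.57% of all genes. Their median log2 changes were 2.41, 1.13 and 0.65. Of 21 WRKY genes 1 rose and none fell, with a median of 0.17. No gene rose and 1 fell in each of the lists of 19 first-wave cold transcription factors, 21 auxin response genes and 11 cytokinin response genes, with medians of 0.16, -0.42 and -0.75. No call was made in either direction among 15 ethylene response factors, 25 jasmonate genes and 30 clock and photoperiod genes, with medians of 0.71, 0.06 and -0.15. Of the root markers, 5 of 18 fell and none rose in limma, and their summed level was 59.5 and 60.9 at 40 d and 100.3 and 99.1 at 20 d, and CASP5, PRP3 and LRX1 were among those at 0 in the deeper 40 d library and CASP5 among those at 0 in the shallower. The shoot marker sums were 3956 and 4021 at 40 d and 4043 and 4066 at 20 d, and may not cover the same genes in both groups. The part of these marker levels in the 40 d values was not tested.

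**Figure D4:**
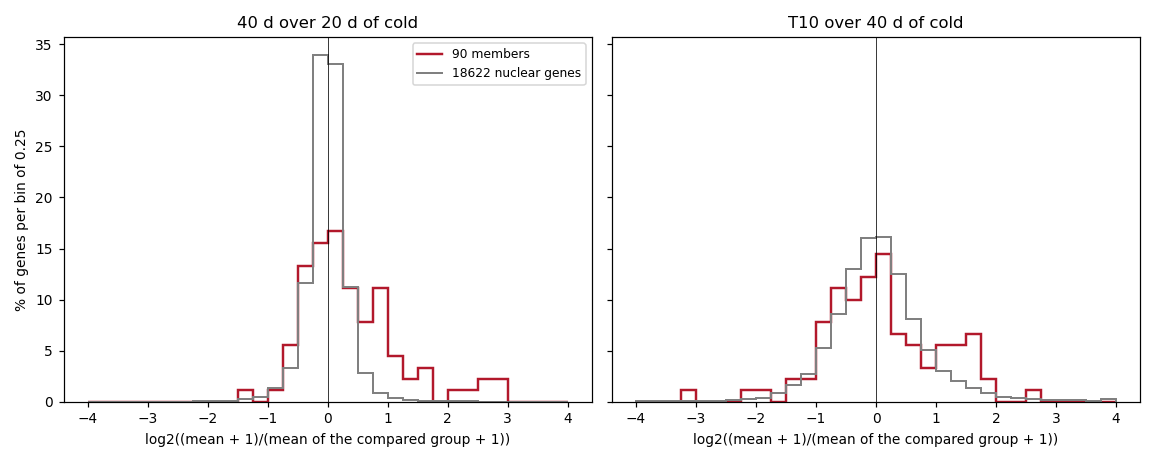
Distribution of log2((mean + 1)/(mean of the compared group + 1)) for 40 d over 20 d (left) and T10 over 40 d (right), as the percentage of genes per bin of 0.25, for the 90 brief risers (red) and all 18622 nuclear genes (grey). At 40 d over 20 d, 15 of the 90 genes lie at 1 or more and 1 at -1 or less, and at T10 over 40 d 19 and 7 do (9.02% and 6.38% of all nuclear genes).

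Against 10 d, the 40 d group differed in both directions at these genes. In limma, 5 of the 90 rose, against 4.83% of all genes, and 6 fell, against 5.82%, both near the background. The rises were ERF105 (log2 change 4.35, SE 1.12, adjusted p 0.0272), DIC2 (3.19, adjusted p 0.0445), GATL10 (2.04, adjusted p 0.0298), STZ (2.02, adjusted p 0.0365) and CPK28 (1.08, adjusted p 0.00977). The falls were AT3G23550, AT5G50450, AT1G49000, PYL6, ARR4 and TEM1, with log2 changes from -2.22 to -1.43. TEM1 was at 17.4 and 30.5 at 40 d and 62.4 and 61.3 at 10 d, and PYL6 at 5.07 and 17.2 at 40 d and 31.4 and 31.9 at 10 d. ARR4 was at 20.9 and 22.9 at 40 d and 60.8 and 59.9 at 10 d. The 40 d libraries of PYL6 and AT5G50450 were at least 2-fold apart, and without the deeper one the log2 changes were -0.88 and -1.04, against -1.79 and -2.04 with it. With sample quality weights 26 rose (15.7% of all genes) and 10 fell (15.1%), with the 2 groups alone 29 (14.8%) and 10 (15.3%), and by size 18 were higher (2.75%) and 6 lower (3.24%). Without the deeper or the shallower 10 d library or the deeper 40 d library none of the 11 calls remained, and without the shallower 40 d library 2 rises and 4 falls were called. For 20 d against 10 d limma called none of the 90 in either direction, against 0.64% of all genes that rose and 0.394% that fell. By size 1 gene was at least 2-fold higher at 20 d (0.843%) and none lower (0.763%). At an unadjusted p under 0.05 that comparison had 1 higher (6.83%) and 5 lower (5.23%). With sample quality weights 1 rose (9%) and 6 fell (7.17%), and with the 2 groups alone 4 rose (10.6%) and 15 fell (9.78%).

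After return to normal growth, CYP81F2, PLA2A and MAPKKK20 were higher than at 40 d and SAG21 was lower. In T10 against 40 d, 14 of the 90 genes rose in limma, against 13.3% of all genes, and 3 fell, against 10.1%, so the rises were near the background share. MAPKKK20 had 4.18 and 2.95 at T10 and 0.04 and 1.02 at 40 d (log2 change 4.32, SE 1.03, adjusted p 0.00938), and its deeper 40 d library held 2 reads. CYP81F2 had 11.5 and 15.6 at T10 and 1.16 and 1.87 at 40 d (3.1, SE 0.574, adjusted p 0.00209). GPT2 (AT1G61800), a glucose-6-phosphate translocator of plastids, had 4.05 and 1.39 at T10 and 0.58 and 0.46 at 40 d (2.65, SE 0.792, adjusted p 0.0289). AT4G29610 had 19 and 12 reads at T10 and 2 in each 40 d library (3.87, SE 1.24, adjusted p 0.039). PLA2A (AT2G26560), a patatin-like phospholipase of pathogen responses, had 22.9 and 29.3 at T10 and 7.10 and 11.2 at 40 d (1.49, adjusted p 0.00253). The other rises were RAV1, TEM1, AT1G56300, ACR4 (AT1G69040), CML38, MEE18 (AT2G34090), AT3G51660, AT5G50450 and AT5G67340, with log2 changes of 0.99 to 2.36. MEE18, AT3G51660 and AT5G67340 lost the call whichever of the 4 libraries was left out. TEM1 kept it only without the shallower 40 d library and CML38 only without the shallower T10 library. RAV1 had a log2 change of 0.65 (adjusted p 0.179) when the deeper 40 d library was left out. It kept the call only when the shallower 40 d library was left out, at 2.44. AT5G50450 lost it without the deeper 40 d library (log2 change 1.36, adjusted p 0.0654) and without the deeper T10 library (adjusted p 0.146). AT1G56300 and ACR4 lost it only without the deeper T10 library, with adjusted p of 0.142 and 0.134.

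SAG21 (AT4G02380), a late embryogenesis abundant type protein gene of senescence and oxidative stress, had 4.53 and 7.11 at T10 and 51.7 and 72.7 at 40 d (log2 change -3.62, SE 0.427, adjusted p 8.95e-05). AT4G30350 (SMXL2), of the family that represses karrikin and strigolactone responses, had 4.12 and 6.94 at T10 and 12.6 and 15.3 at 40 d (-1.59, SE 0.279, adjusted p 0.00152). CPK28 had 12.7 and 12.3 at T10 and 25.0 and 23.5 at 40 d (-0.94, SE 0.253, adjusted p 0.0178). In all 3, which were named for their limma call, both T10 libraries lay below both 40 d libraries. Over the 90 genes that held for 33, near the 32.7% of all nuclear genes. Both T10 libraries lay above both 40 d libraries for 30, near the 32.5% of all nuclear genes. PLA2A, CYP81F2 and SAG21 kept the call whichever of the 4 libraries was left out, with adjusted p of at most 0.0353, 0.0308 and 0.0252. Leaving out the deeper 40 d library gave 4 rises and 2 falls, the shallower 40 d library 9 and 2, the deeper T10 library 3 and 1, and the shallower T10 library 8 and 3. MAPKKK20 had a log2 change of 1.93 (adjusted p 0.0782) when the deeper 40 d library was left out, 6.34 for the shallower 40 d library and 3.95 (adjusted p 0.136) for the deeper T10 library. GPT2 had adjusted p of 0.134, 0.113 and 0.621 without the deeper 40 d, the shallower 40 d and the deeper T10 library, the last at a log2 change of 1.46, and AT4G29610 had 0.189, 0.142 and 0.0884 without the deeper 40 d, the shallower 40 d and the shallower T10 library. SMXL2 had 0.225 without the deeper T10 library, at a log2 change of -0.98, and CPK28 0.0829, 0.0512 and 0.205 without the deeper 40 d, the shallower 40 d and the deeper T10 library. With the 2 groups alone 24 rose (16.1% of all genes) and 15 fell (12.6%). Sample quality weights gave 21 rises (16.1%) and 6 falls (11.9%). Of the 18 root markers, 8 rose and 1 fell in this comparison, and their sums were 64.1 and 57.9 at T10 and 59.5 and 60.9 at 40 d, and their part in the T10 values was not tested.

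Of the 15 genes that were at least 2-fold higher at 40 d than at 20 d, 11 had a lower mean at T10 than at 40 d. Of these, 2 were at least 2-fold lower (6.38% of all nuclear genes), and 1 of the 15 was at least 2-fold higher (9.02%). The 15 were chosen for a high 40 d mean, which favours a lower value in a group compared with it. No share was worked out for other genes chosen in that way, so these counts are a description only. Among the 5 genes at least 2-fold above NV at T10, AT1G56300 had 37.2 and 30.2 at T10 and 9.69 and 5.0 in NV. PLA2A had 22.9 and 29.3 at T10 and 9.57 and 7.88 in NV, and ERF105 9.37 and 8.67 at T10 and 2.93 and 3.14 in NV. The other two were MAPKKK20 and AT3G04640, and the libraries of AT3G04640 at T10 were far apart, at 0.25 and 4.51.

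Histone marks are a readout that the choice of genes did not use. H3K4me3 marks the starts of active genes, H3K36me3 the bodies of transcribed genes and H3K27me3 genes under Polycomb silencing. Most of the 86 protein-coding brief risers carried H3K4me3, few carried H3K36me3 and H3K27me3 was at 4 or 5 of them. A gene was counted as marked where the authors' peaks covered at least 50% of its body in both libraries (for H3K4me3, at least 50% of 1000 bp or of the gene if shorter). H3K4me3 marked 74 of 86 in NV (85.9% of 18197 listed protein-coding genes), 70 at 40 d (84.2%) and 78 at T10 (87.5%). H3K27me3 marked 4 in NV (5.24%), 5 at 40 d (5.76%) and 5 at T10 (5.92%).

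H3K36me3 marked 17 of the 86 in NV, against 55.2% of listed protein-coding genes, 13 at 40 d, against 53.8%, and 13 at T10, against 49%. In each of the 6 H3K36me3 libraries between 15.1% and 23.3% of the 86 were marked, against 49.7% to 59.8% of all listed genes. The combination of H3K4me3 without H3K36me3 was found at 57 of 86 in NV, against 30.8% of listed genes. The brief risers are short genes, with a median length of 1467 bp, against 2469 bp for all listed protein-coding genes, and among listed genes too the marked share was lowest in the shortest genes and in those with the lowest counts. Within gene lengths in NV the marked members were 2 of 13 against 23.3% up to 1000 bp, 2 of 31 against 44.3% from there to 1500 bp, 8 of 29 against 60.7% to 2500 bp, and 5 of 13 against 56.5% above. Within levels in NV, 0 of 22 against 19.7% were marked under a mean of 2, 7 of 36 against 55.8% from 2 to 10, and 10 of 28 against 74.9% at 10 or more. The 2 properties were not stratified together.

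**Figure D5:**
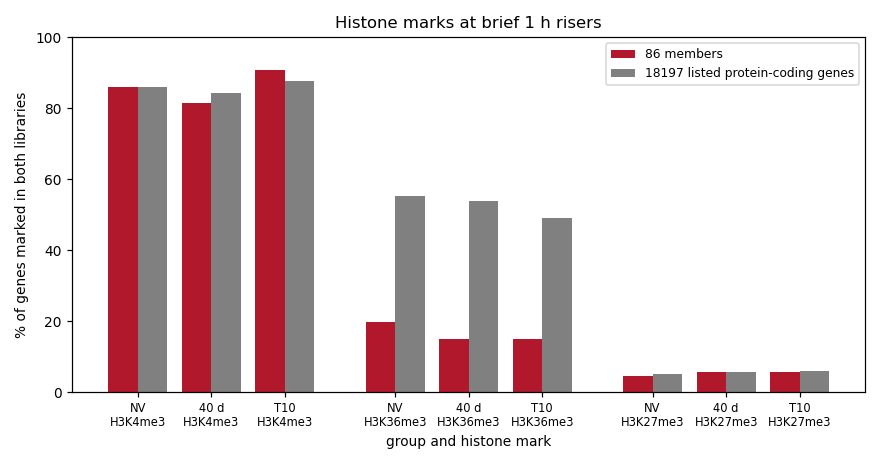
Percentage of genes marked in both ChIP libraries by H3K4me3, H3K36me3 and H3K27me3 in NV, at 40 d and at T10, for the 86 protein-coding brief risers (red) and the 18197 listed protein-coding genes (grey). The red and grey bars are close for H3K4me3 and H3K27me3, and for H3K36me3 the red bars are under 20% and the grey bars at 49% to 55.2%.

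The genes with H3K27me3 in both libraries were MYB15, WRKY28, GATL2 (AT3G50760) and AT4G29610 in all 3 groups, and AT3G13650 at 40 d and T10. At WRKY28, GATL2 and AT4G29610 H3K4me3 peaks lay over the same genes in NV. STZ and CAF1a had no H3K27me3 or H3K36me3 peak in any of the 12 libraries of those marks. In all 6 H3K4me3 libraries peaks covered more than 1000 bp of each of these 2 genes.

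Few marks were gained or lost. A gain or loss means marked in both libraries of one group and in neither of the other. At 40 d, H3K27me3 marked 14 of the 86 in the library of 15.6 M filtered tags (9.74% of listed genes). In that of 3.86 M it marked 5 (5.89%). A mark seen in 1 library alone is not counted as gained. By that rule H3K27me3 was gained at 0 and lost at 0 of the 86 in any comparison. Of listed genes, 0.154% gained and 0.0165% lost it at 40 d against NV, 0.198% gained and 0.0165% lost it at T10 against NV, and 0.0165% gained and 0.0055% lost it at T10 against 40 d. H3K4me3 was lost at PP2-A5 and AT5G03350 at 40 d against NV (1.78% of listed genes) and gained back at both at T10 against 40 d (2.23%), and was gained at XBAT34 (AT4G14365, a ubiquitin ligase gene) and AT3G54150 at T10 against NV (0.78%). H3K36me3 was lost at ATL2, AT5G50450 and ZF3 at 40 d against NV (1.6%) and at AT3G59350, AT5G50450 and MEE18 at T10 against NV (2.08%). It was gained at RAV1, ATL2 and ZF3 at T10 against 40 d (1.01%) and lost at AT3G59350 and MEE18 (2.43%). Among the 86, 0 gained H3K4me3 at 40 d against NV (0.775% of listed genes), and 0 lost it at T10 against NV (0.297%) or against 40 d (0.55%). None gained H3K36me3 at 40 d (0.94%) or at T10 (0.374%) against NV. ZF3 had no H3K36me3 peak at 40 d and was covered in full in both NV and both T10 libraries. At ATL2, AT5G50450, AT3G59350 and MEE18 the coverage moved only across the 50% limit, between 41.2% and 63.4% except for 1 library of AT5G50450 at 40 d without a peak. No test of a single gene was run on the peaks.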

How the data were processed

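The RNA table holds normalised read counts that the authors deposited as the average of the 2 replicates of a group, so its unit is a scaled signal and not a raw count. Per the submitters' processing notes the tools were TopHat, edgeR, Bowtie2 and MACS2 and the build TAIR10, without settings. Peaks and their −log10 q values were made with MACS 2.1.1.20160309, per the file headers, for each ChIP library against its input, without a model, with an extension of 600 bp and a q limit of 5.00e-02.

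The averages were split into whole reads of 2 libraries (relative tolerance 1e-12; the 17 genes with a value above 5000 were left out). limma 3.58.1 with voom in R 4.3.3 was fitted to all 14 libraries and 18762 genes, with Benjamini-Hochberg adjustment, and tested on simulated data. Comparisons that share samples with the choice of genes were described by size. The planned test assumed these split libraries, and the table's averages gave the choice of genes. Peaks were laid over RefSeq TAIR10.1 genes. Of the nuclear identifiers, 18599 matched RefSeq. Filtered tags per ChIP library ran from 3.42 M (H3K27me3) to 37.0 M (H3K4me3).

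The members and lists were chosen with earlier results of these data known. Genes were named by size of the 1 h ratio with and without overlap, place in a list, a passed test, nearness to a threshold, a gained or lost mark, or a high 1 h level; further names were chosen after their values were seen. Alternatives were another pseudocount, other limma settings, left-out libraries and other coverage limits. Promoter motifs were not analysed here.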

Additional observations from a re-analysis of the deposited data

How the results depend on the processing

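No paired analysis was possible because the columns of the RNA table carry no replicate numbers. The by-size counts for the later comparisons and the library pairs were chosen after seeing the data. The 90 genes became 37 with a pseudocount of 5, 17 when both library pairs had to reach the limit, and 89 to 305 with 1 library left out (305 without the deeper 1 h and 294 without the deeper NV library). Of the 90 genes, 25 were among the 102 chosen without the shallower 1 h library, 55 among the 95 without the shallower NV library, 77 among the 305, 74 among the 294 and 34 among the 37. The next counts against NV were made for the 90 genes only. No share of all nuclear genes was worked out under the same settings, so they are no result about these genes. With a pseudocount of 5, genes at least 2-fold below NV numbered 11 at 10 d, 17 at 20 d, 9 at 40 d and 7 at T10. Above NV there were 0 at 40 d and 2 at T10, and a pseudocount of 0.5 gave 2 above NV at 20 d. With 1 library left out those below NV ranged over 28 to 44, 31 to 45, 19 to 28 and 12 to 29 at the 4 times, and those above over 0 to 1, 0 to 3, 1 to 7 and 5 to 8. For 20 d against 10 d, rises and falls were 1 and 6 with quality weights, 4 and 15 with the 2 groups alone, 1 rise by size and 0 to 0 with a library left out. For 40 d against 20 d, rises were 2 with limma-trend, 22 with weights, 2 with library totals, 26 with the 2 groups alone, 15 by size and 0 to 0 with a library left out, and falls 4 with weights, 4 with the 2 groups alone, 1 by size and 0 to 2. For 40 d against 10 d, rises were 26, 29 and 18 with weights, the 2 groups alone and by size, and 0 to 2 with a library left out, and falls 10, 10 and 0 to 4. For T10 against 40 d, rises were 24 with the 2 groups alone and 3 to 9 with a library left out, and falls 6 with limma-trend, 6 with weights, 15 with the 2 groups alone, 7 by size and 1 to 3. The planned limma fit of 1 h against NV is not reported, because that contrast chose the genes.

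H3K27me3 marked 8, 7 and 9 genes at NV, 40 d and T10 at a coverage of 25%, 2, 3 and 3 at 75%, and 6 to 7, 5 to 14 and 6 to 13 with 1 library. H3K36me3 marked 6, 5 and 4 at 75%, 21 at T10 at 25%, and 18 to 20, 13 to 16 and 14 to 15 with 1 library. H3K4me3 marked 75, 72 to 76 and 78 with 1 library. Marks gained at 40 d against NV numbered 1 at 25% and 2 to 13 with 1 library, and lost 1 at 75% and 9 to 11. At T10 against NV, gains were 1 at 75%, 1 with −log10 q of at least 5 and 4 to 10 with 1 library, and losses 0 at 25%, 1 at 75% and 4 to 7. At T10 against 40 d, gains were 2 at 75% and 8 to 12, and losses 0 at 25%, 0 at 75% and 6 to 6. Over the pairs of an alternative and a called gene, for the called genes with the largest changes in each comparison, 97 kept the call and 47 lost it, and none reversed; the call held whichever library was left out for 0 of 1 gene at 40 d against 20 d, 0 of 11 at 40 d against 10 d and 3 of 17 at T10 against 40 d. The causes of these differences were not tested. Low counts limit genes such as AT4G29610, and T10 has the shallowest library.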
